A study of Mus musculus with 6 samples.

Results

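Annotated non-coding loci that lie antisense to protein-coding genes were examined in mouse pancreatic islets, on a normal and on a high fat diet. A locus was taken when a transcript of the deposited assembly followed a reference transcript (Cufflinks class = or j), none of its transcripts carried a coding flag, some transcript had 2 or more exons, its span was 200 bases or more, and that span overlapped a flagged coding locus on the other strand. Of 39470 loci in the assembly, 1052 met these conditions once 3 named host genes had been left out, and 597 of them had 60 or more counts over the 6 libraries. Levels played no other part in the choice. Just inside that limit, at 60 counts, were C430014B12Rik, B230110C06Rik and Gm45338, and just outside it, at 59, were Gm4793, Gm26588 and a locus matched to Nkx6-2. The filter on low counts of the diet comparison kept 591 of the 597 and dropped 6, among them D930032P07Rik, which lies in the Glis3 locus. Gene symbols are not in the deposited assembly and were assigned by matching the lengths of exons and introns to a later annotation, which named 521 of the 597. The later annotation calls 317 of these antisense, 107 processed transcripts, 47 lincRNAs, 18 bidirectional promoter lncRNAs and 19 protein-coding.

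An antisense RNA is made from the strand opposite to a gene, and can overlap the gene's exons, sit inside an intron or start beside its promoter and run the other way. Such RNAs are known to act in several ways: some alter chromatin or transcription at the locus they come from, as imprinted antisense RNAs do, some pair with the sense transcript, and for many no function is known. In islets, antisense neighbours of genes for transcription factors have drawn interest because these factors keep beta and alpha cells in their mature state.

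The islets came from C57BL/6 mice, an inbred laboratory strain, killed at 14 weeks of age after 8 weeks on a normal diet (3 libraries) or on a high fat diet (3 libraries). No allele, transgene or drug is named in the labels, and both groups share strain, age and tissue. Libraries were depleted of ribosomal RNA rather than selected for poly(A) tails, and so could hold untailed and unspliced RNA. The count columns abbreviate the diets, and the columns headed HDR were read as the high fat diet. That reading is an inference from names, and every direction given here depends on it.

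The start of transcription was viewed in RefSeq promoter windows, from 250 bases before to 50 after a gene's start on its own strand (assembly GRCm38.p6), which were found by symbol for 323 of the 597 loci. The 6 windows below belong to the largest rise (5330439B14Rik), a large fall (9630013A20Rik), a locus that moved against its coding partner (4930447N08Rik), a locus that shares its start region with an islet transcription factor gene (C130021I20Rik), and Pax6os1, which starts inside Pax6 and runs out across the Pax6 start, with Pax6 itself. Capitals mark every match on either strand to 5 motifs: TATAAA, the core of the TATA box, CCAAT, the box bound by NF-Y, GGGCGG, a GC box bound by Sp1 and related factors, TGACGTCA, the cAMP response element bound by CREB-family factors, and TAATTA, a core bound by many homeodomain factors.
5330439B14Rik: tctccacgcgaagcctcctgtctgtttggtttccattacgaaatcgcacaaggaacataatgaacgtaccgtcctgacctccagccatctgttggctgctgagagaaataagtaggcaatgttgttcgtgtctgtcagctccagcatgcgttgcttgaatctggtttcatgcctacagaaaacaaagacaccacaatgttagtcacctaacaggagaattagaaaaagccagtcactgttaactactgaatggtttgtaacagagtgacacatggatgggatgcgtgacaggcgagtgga
9630013A20Rik: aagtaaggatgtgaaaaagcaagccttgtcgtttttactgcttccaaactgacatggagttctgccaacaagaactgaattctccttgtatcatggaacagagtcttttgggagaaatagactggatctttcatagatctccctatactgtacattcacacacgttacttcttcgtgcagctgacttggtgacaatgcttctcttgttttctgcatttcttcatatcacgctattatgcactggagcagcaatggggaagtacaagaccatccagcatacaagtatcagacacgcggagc
4930447N08Rik: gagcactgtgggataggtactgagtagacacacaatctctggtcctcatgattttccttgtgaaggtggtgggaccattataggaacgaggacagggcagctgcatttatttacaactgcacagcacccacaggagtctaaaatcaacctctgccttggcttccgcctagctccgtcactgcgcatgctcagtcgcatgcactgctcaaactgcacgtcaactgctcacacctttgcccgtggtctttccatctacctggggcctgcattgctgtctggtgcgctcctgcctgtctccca
C130021I20Rik: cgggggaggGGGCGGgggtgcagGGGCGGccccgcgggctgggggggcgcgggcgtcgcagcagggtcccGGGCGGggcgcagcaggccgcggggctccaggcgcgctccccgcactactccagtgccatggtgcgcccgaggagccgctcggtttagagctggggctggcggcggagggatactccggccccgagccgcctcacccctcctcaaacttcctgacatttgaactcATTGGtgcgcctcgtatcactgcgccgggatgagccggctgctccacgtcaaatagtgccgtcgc
Pax6os1: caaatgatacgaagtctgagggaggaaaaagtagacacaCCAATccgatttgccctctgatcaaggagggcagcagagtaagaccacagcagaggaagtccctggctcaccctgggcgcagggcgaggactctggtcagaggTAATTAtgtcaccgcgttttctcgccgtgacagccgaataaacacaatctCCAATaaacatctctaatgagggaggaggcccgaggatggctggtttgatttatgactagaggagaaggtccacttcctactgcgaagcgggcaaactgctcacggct
Pax6: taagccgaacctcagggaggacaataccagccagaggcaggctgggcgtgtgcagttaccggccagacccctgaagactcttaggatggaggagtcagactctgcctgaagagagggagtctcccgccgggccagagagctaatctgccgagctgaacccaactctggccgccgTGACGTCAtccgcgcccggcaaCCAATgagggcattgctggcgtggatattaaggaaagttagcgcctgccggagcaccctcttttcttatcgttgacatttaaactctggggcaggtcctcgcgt
These windows are chr6:142614345-142614644 (plus strand), chr14:84476375-84476674 (minus), chr3:122801931-122802230 (minus), chr2:33640943-33641242 (plus), chr2:105670281-105670580 (minus) and chr2:105668646-105668945 (plus), in that order. None of the 5 motifs is in the windows of 5330439B14Rik, 9630013A20Rik and 4930447N08Rik. That of C130021I20Rik holds 34 CpG dinucleotides, 3 matches to GGGCGG and 1 to CCAAT, and it overlaps the window of Lmx1b on the other strand by 194 bases. Its RefSeq start is not that of the deposited transcripts: the distance between the starts of C130021I20Rik and Lmx1b differs by 4085 bases between the annotations. Pax6os1 and Pax6 start 1434 bases apart in both, and their windows share no base. The Pax6os1 window holds CCAAT at 2 places and TAATTA at 1, and the Pax6 window holds TGACGTCA and CCAAT.

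Loci on chromosome 18 were left out of the pairs of windows, but not of the 323 loci or of all 32851 windows. Over the 265 other antisense loci with a window for both themselves and a coding partner, GGGCGG was present in 39.2%, against 66.0% of the 262 partner windows and 35.7% of all 32851 windows. CCAAT was present in 37.4%, 41.2% and 37.4% of the same sets, TATAAA in 8.68%, 6.49% and 13.6%, TGACGTCA in 1.51%, 3.05% and 1.79%, and TAATTA in 4.15%, 1.91% and 5.29%. The median number of CpG dinucleotides was 8 in antisense windows, 21 in partner windows and 7 in all windows. For 112 of the 265 pairs the distance between the starts agrees within 100 bases between the RefSeq windows and the deposited assembly, and for the other pairs a window may not be at the start of the deposited locus. In those 112 antisense windows and the 109 of their partners, GGGCGG was present in 40.2% and 70.6%, and the median number of CpG dinucleotides was 10 and 21.

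How reads were shared between overlapping loci sets what a count of an antisense locus can mean. Of the annotated spliced loci of the whole assembly, 256 have every exonic base under an exon of the other strand, 228 of them coding, and all 256 have 0 counts in every library. Where no exonic base is covered in this way, 6.15% of coding and 24.4% of non-coding loci have 0 counts. The libraries came from a stranded kit, but strand use in the counting is not given in the sources used here. Counts of the antisense loci therefore stand for bases outside opposite exons, and for bases that lie in an intron of the partner, reads of the antisense RNA and of the partner's unspliced RNA cannot be told apart.

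**Figure D1:**
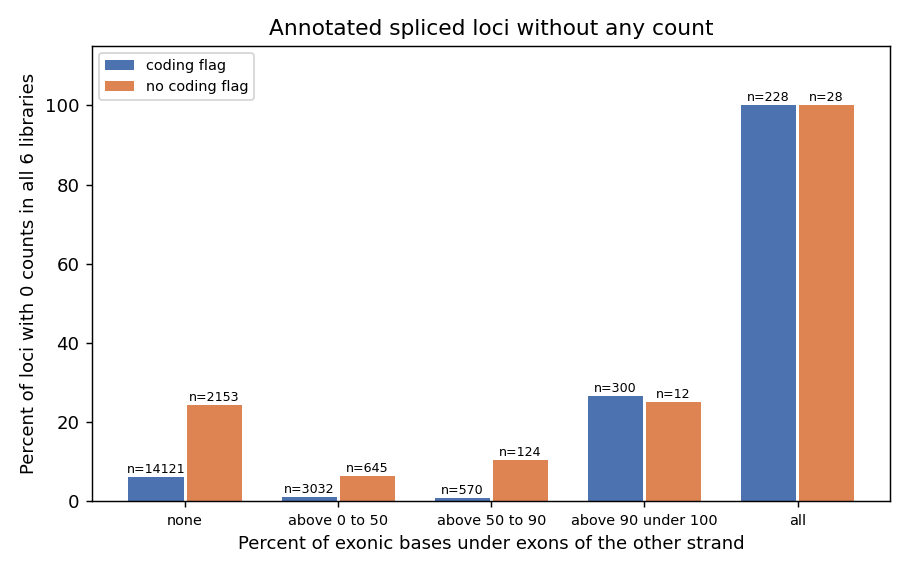
Share of annotated spliced loci with 0 counts over the 6 libraries (vertical axis, percent), by the share of their exonic bases that lies under exons of the other strand (horizontal axis), for coding and non-coding loci. The bars reach 100% where all exonic bases are covered.

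The libraries held between 104657337 and 135353777 counts. Islet hormone genes were the mark of the tissue: Iapp was at 34801 to 64984 CPM (counts scaled to library size, with TMM normalisation) and Gcg at 17327 to 24400. The insulin genes were lower than these, Ins2 at 9906 to 16866 CPM and Ins1 at 6538 to 10027. On principal component 2, high fat library 3 (59.4) was far from high fat libraries 1 (-32.3) and 2 (-25.5). On principal component 1, normal diet library 1 (-53.3) stood apart from normal diet libraries 2 (-30.6) and 3 (-29.5). Marker lists of cell types were also summed. Alpha cell markers, which include Gcg, came to 23055 to 25464 CPM on the normal and 18499 to 22032 on the high fat diet. Of the 6 tested alpha markers 3 were lower and 1 higher. Schwann cells are the glia of islet nerves, and their markers summed to 27.2 to 30.8 and 17.5 to 25.9 CPM, with 3 of 7 lower. Acinar markers, from the exocrine pancreas, summed to 4339 to 8249 and 6156 to 13284 CPM, with 1 of 21 higher. Of 6 tested myeloid markers 1 was lower (sums of 167 to 177 and 107 to 161 CPM), of 10 stromal markers 2 were higher and 1 lower, and none of the tested duct, endothelial or lymphocyte markers was called. The alpha marker Ttr, the duct marker Krt7 and the myeloid marker Cd68 are listed at 0 counts. The acinar level was tried as a covariate, with the result given beside the diet comparison, and the part of the other shifts in the results was not tested. In bulk islets, fewer cells of a type and less RNA per cell cannot be told apart, and the labels do not say whether libraries came from separate mice, so that p-values measure the spread between libraries.

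Most antisense loci were weakly expressed. The median locus spanned 14497 bases of build mm9, had 3 exons and 2418 exonic bases, and reached 0.774 CPM, with a range over the 597 of 0.0804 to 435 CPM. Much of a typical locus lay within its partner: the median share of exonic bases in partner introns was 58.4%, that under opposite exons 8.42% and that outside coding partners 11.9%. By arrangement, 207 loci lay inside the coding locus, 165 were head to head with it (the 5′ ends overlap), 159 tail to tail (the 3′ ends overlap), and 66 spanned it.

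Per kilobase of exon, the 6 highest levels were those of XLOC_028867 in Rimklb (190 CPM per kilobase), XLOC_004694 across Efcab5 (163), XLOC_036122 in Lca5 (101), Gm15564 beside Parp9 (95.0), A530058N18Rik across Actc1 (15.5) and Pax6os1 beside Pax6 (13.3), against a median of 0.335 over all 597. The first 3 have no matched gene and are known by the assembly's own identifiers. Few of their exonic bases belong to transcripts of class =: 74 of 421 in XLOC_028867, 208 of 2673 in XLOC_004694 and 30 of 798 in XLOC_036122. In XLOC_004694 the 208 bases are a single exon of 1 such transcript. XLOC_028867 fits its 3 exons into a span of 526 bases and XLOC_036122 its 2 into 848. Gm15564 varied within the high fat group, at 72.6, 39.1 and 33.0 CPM in high fat libraries 1, 2 and 3, against 19.6, 33.5 and 31.3 in the normal diet libraries. The diets overlap for this locus (adjusted p = 0.11).

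The main comparison asked whether antisense loci differ between the diets, and falls outnumbered rises. Of 591 loci tested, 66 (11.2%) were lower and 7 (1.18%) higher on the high fat diet at an adjusted p under 0.05, while among all 23983 loci tested 4.86% were lower and 5.95% higher. The median log2 fold change of the antisense loci was -0.34 (quartiles -0.68 and -0.02) and 452 of them (76.5%) lay below 0, against a median of -0.05 and 54.5% for all loci. Of the 14396 coding loci tested, 3.14% were lower and 8.51% higher, with a median of 0.06. The nearest class is that of annotated spliced non-coding loci over no opposite coding locus, of which 569 were tested: 5.8% were lower, 2.64% higher and the median was -0.09. For 261 antisense loci (44.2%) the diets did not overlap, against 39.2% of all loci. The 73 calls kept their direction under each of the 12 other fits in which they could be tested, but their number did not hold. The loci had been picked on these same libraries, so a kept direction is no separate test of it. With cyclic loess scaling 14 were lower and 3 higher, against 232 and 249 of all 23983 loci, and the median moved to -0.09. With the acinar level as a covariate edgeR called 0 lower and 0 higher, and 0 and 0 among all 23983 loci. At an unadjusted p under 0.05 that fit had 110 lower and 12 higher antisense loci, and 4866 of all loci in either direction. The median of the antisense loci was -0.30. No antisense locus was lower when normal diet library 1, 2 or 3 or high fat library 2 was left out of the edgeR fit. Between 146 and 187 were still lower at an unadjusted p under 0.05, with 5500 to 6399 of all loci tested at that level in either direction. Without high fat library 1, 2 antisense loci were lower, and without high fat library 3, 96. Among all loci tested, 0 were lower without a normal diet library, and 34, 29 and 1960 without high fat library 1, 2 and 3. The loss of calls was thus not particular to the antisense loci.

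Where the exons lay relative to the partner went with how far the loci differed. Of 328 tested loci with 50% or more of their exonic bases in partner introns, 55 (16.8%) were lower and 4 higher, and the median log2 fold change was -0.53. Of 175 tested loci with 50% or more outside coding partners, 6 (3.43%) were lower and 3 higher, with a median of -0.14, a value that changes sign to 0.04 under cyclic loess, where that of the intronic loci stays negative at -0.27. The remaining 88, mostly under partner exons or mixed, held 5 lower and 0 higher loci (0 higher also at an unadjusted p under 0.05 and by DESeq2), with a median of -0.28 that cyclic loess takes to 0.0014. In the main edgeR fit the coding partners of the intronic loci did not share the shift. Their median there was 0.04 over 304 tested pairs, with 19 partners higher and 9 lower. The median of these partners under cyclic loess is not given here, so that this contrast holds for the main scaling only. Without normal diet library 1 the edgeR medians were -0.40 for the intronic loci and -0.12 for those mostly outside coding partners. The difference between the position classes was not tested.

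**Figure D2:**
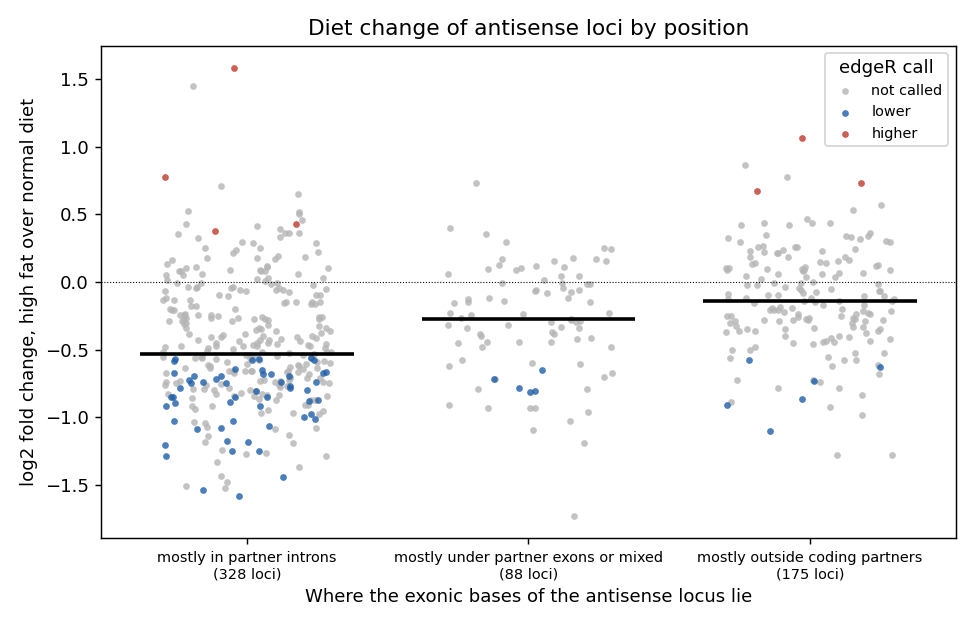
Log2 fold change, high fat minus normal diet, of each tested antisense locus (points) by where most of its exonic bases lie relative to the coding partner, with a bar at the median of each class and called loci in color. The median is -0.53 for loci mostly in partner introns and -0.14 for loci mostly outside coding partners.

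A small class of loci with very long assembled exons held many of the falls. The longest exon was 10000 bases or more in 53 loci, of which 30 (56.6%) were lower and 0 higher (0 at an unadjusted p under 0.05, 0 by DESeq2 and 0 by cyclic loess), 51 lay below 0, and the median was -0.65. Under cyclic loess this median was -0.61 and 11 were lower. The other 538 tested loci held 36 lower (6.69%) and 7 higher, with a median of -0.29. The long-exon loci were also more abundant, with a median of 12.8 CPM against 0.666, although per kilobase the medians were 0.571 and 0.311. Within the intronic class, leaving out the long-exon loci gave 29 lower and 4 higher of 285, with a median of -0.48. Under cyclic loess these loci held 2 lower and 2 higher, with a median of -0.19. The whole intronic class held 11 lower and 2 higher under cyclic loess, with a median of -0.27. In 16 loci the exons of the main coding partner lie wholly under exons of the antisense locus. All 16 partners have 0 counts, and 10 of the 16 antisense loci were lower.

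1700113A16Rik, opposite Mef2d (a MADS-box transcription factor), shows how such loci are built; it and the next example were chosen after their values were seen. In the assembly 1700113A16Rik (chr3:87941076-87983188 of mm9, minus strand) has 36978 exonic bases, of which 1088 belong to reference transcripts, and its longest exon is 34816 bases. It stood at 53.0, 42.0 and 41.9 CPM in normal diet libraries 1, 2 and 3 and at 30.2, 27.7 and 27.4 in the high fat libraries. All high fat libraries were below all normal diet libraries, and the log2 fold change was -0.68 (SE 0.12, adjusted p = 0.021). Mef2d has 0 counts, so its own change cannot be read from these counts. 1700001G11Rik, opposite Trim35, a tripartite-motif gene, is built alike, with 611 of its 17684 exonic bases from reference transcripts. It was at 40.9, 34.5 and 38 CPM on the normal and 19.6, 15.9 and 24.6 CPM on the high fat diet, a log2 fold change of -0.92 (SE 0.16, adjusted p = 0.021), with Trim35 at 0 counts.

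**Figure D3:**
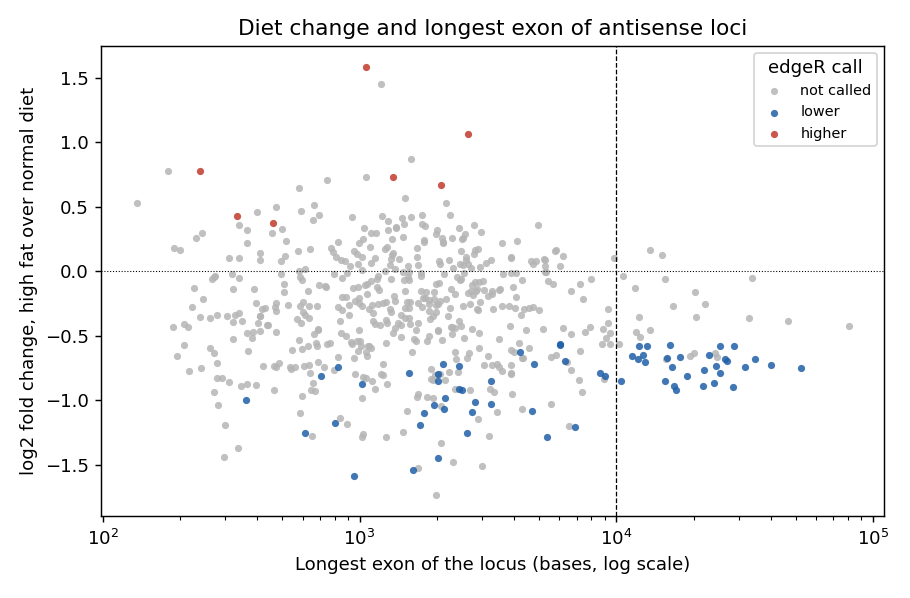
Log2 fold change of each tested antisense locus (vertical axis) against the length of its longest exon in bases (horizontal log axis), with loci past the threshold marked. Of the 53 loci with an exon of 10000 bases or more, 51 lie below 0.

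Among the 66 falls, log2 fold changes ran from -1.59 to -0.56. The 8 largest with no overlap between diets were Gm45188, 9630013A20Rik, AC116597.1, Lrp8os2, D830024N08Rik, Gm45670, A930001M01Rik and XLOC_024955, all with most of their exonic bases in introns of their partner. Gm45188 lies in Uvrag, a gene of autophagy and endosome traffic, and had 0.328, 0.155 and 0.252 CPM on the normal and 0.0618, 0.0621 and 0.116 on the high fat diet. It has 122 counts in all, and its log2 fold change of -1.59 carries an SE of 0.41 (adjusted p = 0.044). 9630013A20Rik, in the protocadherin gene Pcdh17, rests on 64 counts and fell from 0.144, 0.109 and 0.133 CPM to 0.0353, 0.0311 and 0.0617 (log2 fold change -1.54, SE 0.41, adjusted p = 0.046). These are loci near the lower limit of what could be counted. Their partners were not called: Uvrag was at 59.9 ± 2.93 and 65.2 ± 0.847 CPM (SD, n = 3 each) and Pcdh17 at 8.73 ± 0.29 and 9.87 ± 3.44.

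D830024N08Rik, antisense in Tecr, whose product reduces very long chain fatty acyl-CoAs in their elongation, was among the falls best separated from the spread. It was at 1.06, 0.912 and 0.813 CPM in the normal diet libraries and at 0.380, 0.352 and 0.432 in the high fat libraries (log2 fold change -1.25, SE 0.21, adjusted p = 0.020). Even the lowest normal diet library was above all high fat libraries. Tecr itself was at 70.8 ± 9.07 and 74.9 ± 11.2 CPM (log2 fold change 0.08, adjusted p = 0.71). A930001M01Rik, in the Rab GTPase-activating gene Tbc1d22a, fell by 1.21 on the log2 scale (SE 0.28, adjusted p = 0.036), and XLOC_024955, in the cell polarity gene Patj, by 1.19 (SE 0.29, adjusted p = 0.039). Neither partner was called, with log2 fold changes of -0.03 for Tbc1d22a and 0.11 for Patj.

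All 7 rises showed no overlap between the diets. The largest was 5330439B14Rik (chr6:142563115-142574982 of mm9, plus strand), in the locus of Abcc9, which encodes the sulfonylurea receptor SUR2 of ATP-sensitive potassium channels in heart and vessels. It was at 0.512, 0.410 and 0.281 CPM on the normal and 1.37, 1.18 and 1.04 CPM in the high fat libraries, a rise of 2.99-fold (log2 fold change 1.58, SE 0.25, adjusted p = 0.020). Abcc9 did not pass the test, at 6.94 ± 0.498 and 7.27 ± 1.25 CPM. 5830444B04Rik, head to head with the cilium gene Cfap74, was at 3.91, 5.63 and 2.32 CPM and at 8.58, 7.27 and 8.90 (log2 fold change 1.07, SE 0.28, adjusted p = 0.045). Gm15747, head to head with Mlxip, a glucose-responsive transcription factor gene also called MondoA, rose by 0.78 on the log2 scale (SE 0.19, adjusted p = 0.039), while Mlxip was at 0.535 ± 0.0983 and 0.334 ± 0.163 CPM (adjusted p = 0.24).

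The other 4 rises were unnamed loci, 3 of them the highest per kilobase. XLOC_004694 was at 326, 333 and 323 CPM on the normal and 673, 457 and 500 CPM on the high fat diet (log2 fold change 0.73, SE 0.13, adjusted p = 0.024). The normal diet libraries lay close together and high fat library 1 stood above the other high fat libraries. XLOC_036122 rose from 64.8, 73.2 and 73.4 to 90.5, 91.7 and 92.2 CPM, a log2 fold change of 0.38 (SE 0.08, adjusted p = 0.031). Neither partner was called: Efcab5 was at 0.566 and 0.568 CPM and Lca5, a cilium gene, at 5.74 and 6.28 CPM. In the limma test of pair ratios described below, that of XLOC_004694 to Efcab5 did not pass either (adjusted p = 0.16). XLOC_021912 and XLOC_028867 are described with their partners below.

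**Figure D4:**
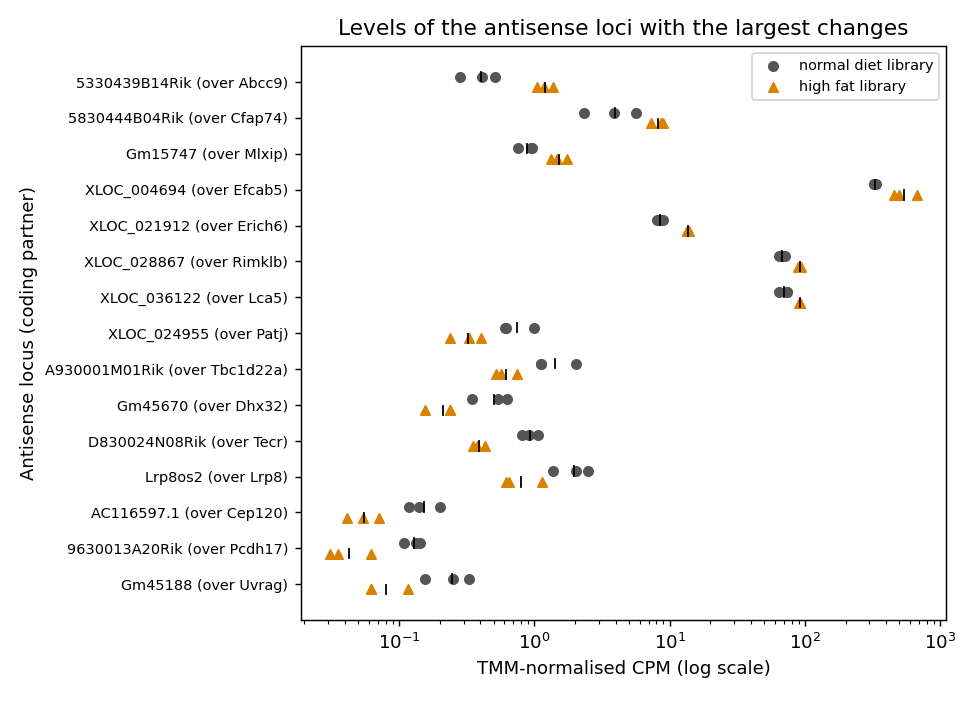
CPM (horizontal log axis) of the 7 rises and 8 largest falls, with 1 symbol per library (circles normal diet, triangles high fat, 3 each) and a tick at each diet's mean. For 5330439B14Rik the high fat libraries sit between 1.04 and 1.37 CPM, above all normal diet libraries, and for D830024N08Rik between 0.352 and 0.432, below them.

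The 597 loci overlap 668 coding partner loci, of which 600 were tested and 26 have 0 counts. Of the 600, 45 were higher and 16 lower, against 8.51% and 3.14% of all coding loci, a split that turns to 5 higher and 8 lower under cyclic loess. Each antisense locus was then set beside its main partner, the coding locus with which it shares most bases, in 543 pairs with both tested. Of 50 lower antisense loci in these pairs, 46 had a partner that was not called, 2 a lower and 2 a higher partner. Of 7 higher ones, 5 had a partner that was not called. The log2 fold changes of locus and partner were hardly related across the 543 pairs (Spearman's rho 0.05, Pearson's r 0.07), and 256 pairs had the same sign; the points share 6 libraries and some share a partner. In 59 tested pairs that are head to head with starts 1000 bases or less apart, rho was 0.49 and r 0.47, and 37 had the same sign. In those close pairs 8 partners were higher and 1 lower, and of the 60 antisense loci tested 1 was higher and 3 lower, with a median of -0.12 (0.07 under cyclic loess).

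In 3 pairs both sides were called in the same direction. Lrp8os2 lies in the introns of Lrp8, a receptor for reelin and apolipoprotein E. It was at 2.48, 2.03 and 1.37 CPM on the normal and 1.14, 0.621 and 0.648 CPM on the high fat diet (log2 fold change -1.28, SE 0.30, adjusted p = 0.035). Lrp8 fell with it, from 12.9 ± 0.594 to 7.66 ± 1.98 CPM (log2 fold change -0.75, SE 0.19, adjusted p = 0.040). B230319C09Rik, inside Tet3, which encodes an enzyme that oxidises 5-methylcytosine in DNA, was at 4.27, 3.15 and 3.11 CPM and then at 2.27, 1.95 and 2.27 (log2 fold change -0.69, adjusted p = 0.042). Tet3 went from 22.3 ± 1.86 down to 16 ± 1.24 CPM (-0.48, SE 0.11, adjusted p = 0.035). XLOC_021912 starts 403 bases from Erich6, a glutamate-rich protein gene, and both rose: XLOC_021912 from 8.14, 8.92 and 8.58 to 13.4, 13.9 and 13.5 CPM (log2 fold change 0.67, SE 0.11, adjusted p = 0.020) and Erich6 from 3.33 ± 0.489 to 5.09 ± 0.624 CPM (0.61, adjusted p = 0.048).

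In 3 pairs both sides were called and moved apart. 4930447N08Rik lies in the introns of Pde5a, the gene of a phosphodiesterase that breaks down cyclic GMP. It was at 2.50, 2.03 and 1.99 CPM on the normal and 1.17, 1.34 and 1.23 CPM on the high fat diet (log2 fold change -0.81, SE 0.17, adjusted p = 0.028), while Pde5a rose from 442 ± 79.3 to 692 ± 91.0 CPM (0.65, SE 0.14, adjusted p = 0.033). Gm45670, in the RNA helicase gene Dhx32, went from 0.632, 0.346 and 0.540 CPM to 0.238, 0.155 and 0.239 (-1.25, SE 0.30, adjusted p = 0.039), and Dhx32 from 124 ± 6.43 to 151 ± 1.54 CPM (0.28, adjusted p = 0.048). XLOC_028867 rose from 64.2, 71.6 and 69.1 to 92.6, 89.1 and 93.6 CPM (0.43, SE 0.08, adjusted p = 0.024), and Rimklb, which makes N-acetylaspartylglutamate, fell from 2.44 ± 0.179 to 1.31 ± 0.319 CPM (-0.90, SE 0.21, adjusted p = 0.034).

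The ratio of antisense locus to partner was tested directly over 2721 opposite-strand pairs of the assembly. In these pairs both loci had passed the filter on low counts, and 96 (3.53%) differed between the diets. Of the 610 pairs that hold an antisense locus of this set, 20 differed, a share no larger than that of all pairs tested. The ratio was lower on the high fat diet in 17 of them and higher in 3. At an unadjusted p under 0.05 there were 195 of the 610, and the share of all pairs at that level is not given here. The 6 smallest adjusted p were all 0.044. The ratio fell by 1.45 on the log2 scale for 4930447N08Rik to Pde5a, 1.45 for Gm10804 to Cd82, a tetraspanin gene, 1.21 for XLOC_034057 to Cdh8, a cadherin gene, and 1.04 for Gm47071 to H2afy, the gene of the histone variant macroH2A. For XLOC_016185 and Crem, a cAMP response factor gene, it also fell, by 1.22, with Crem up from 50.1 ± 6.32 to 77.5 ± 9.40 CPM (adjusted p = 0.026) and the antisense locus not called (adjusted p = 0.12). For XLOC_028867 to Rimklb it rose by 1.34. The exact permutation test gave p = 0.1 for each of these 6 pairs, the smallest it can give with 3 libraries against 3.

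XLOC_034057 shows a ratio that moved on the antisense side. It was at 11.8, 10.3 and 12.5 CPM on the normal and 4.55, 4.59 and 7.20 CPM on the high fat diet (log2 fold change -1.08, SE 0.20, adjusted p = 0.023). Cdh8 was at 152 ± 8.55 and 164 ± 19.3 CPM (adjusted p = 0.49). Under cyclic loess no ratio of these 610 pairs was called. The same held in the limma fits with normal diet library 1, 2 or 3 or high fat library 1 or 2 left out, and 88 were called without high fat library 3.

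**Figure D5:**
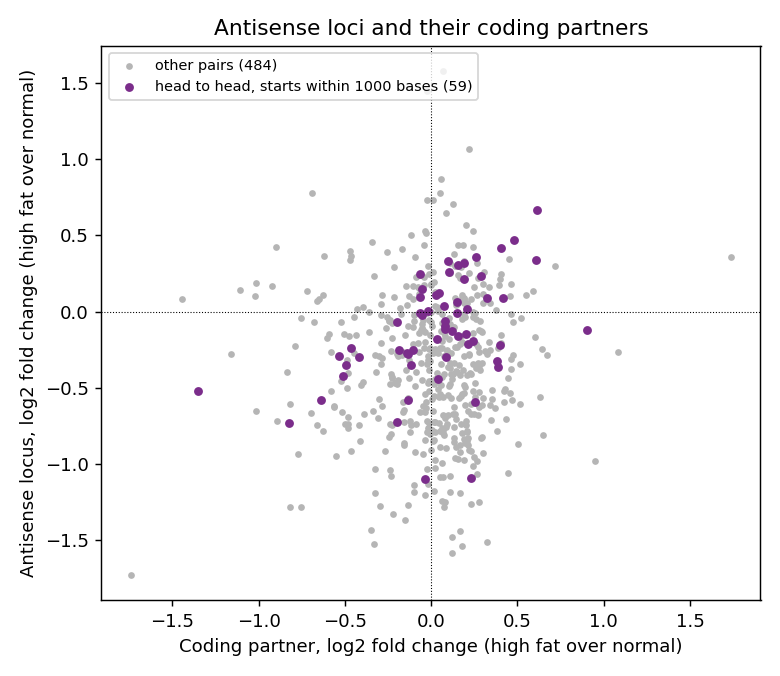
Log2 fold change of the antisense locus (vertical axis) against that of its main coding partner (horizontal axis) for the 543 pairs with both tested, with the close head-to-head pairs in purple. The cloud is shifted below 0 on the antisense axis, and rho is 0.05 over all pairs and 0.49 over the 59 close head-to-head pairs.

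Partners that are islet transcription factor genes had few called changes. Of 48 factors listed, 6 are partners here, of 6 antisense loci, and of the 5 of these that were tested 1 was lower and 0 higher. At an unadjusted p under 0.05, 3 were lower and 1 higher, and DESeq2 called 2 lower and 0 higher. At that unadjusted level the main edgeR fit had 196 lower and 20 higher of the 591 antisense loci tested. Of all 23983 loci it had 7623 in either direction, and DESeq2 called 100 of the 597 antisense loci lower. None of the 6 partner genes was called by edgeR, 2 were lower at an unadjusted p under 0.05, and DESeq2 called 1 lower. The called locus was C130021I20Rik, head to head with Lmx1b, a LIM-homeodomain gene. It was at 7.97, 8.34 and 7.77 CPM on the normal and 5.58, 4.88 and 5.14 CPM on the high fat diet, so that every normal diet library was above every high fat library (log2 fold change -0.63, SE 0.12, adjusted p = 0.026). Lmx1b was at 3.70 ± 0.442 and 2.51 ± 0.216 CPM (-0.56, SE 0.15), with an adjusted p of 0.0501.

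Pax6os1, head to head with Pax6, a paired-box factor gene of islet endocrine cells, was at 20.0, 20.5 and 21.4 CPM on the normal and at 22.2, 25.5 and 28.4 CPM on the high fat diet. The high fat libraries were all above the normal diet libraries, but the difference of 0.30 on the log2 scale (SE 0.11) did not pass the test (adjusted p = 0.11). Pax6 stood at 114 ± 2.64 and 113 ± 5.14 CPM. Nkx2-2os, head to head with Nkx2-2, a homeodomain factor of beta-cell identity, was at 3.55, 3.68 and 2.57 CPM and at 2.16, 1.63 and 2.35 CPM (-0.67, SE 0.20, adjusted p = 0.064). Nkx2-2 was at 16.3 ± 2.32 and 18 ± 1.38 CPM. Of the 12203 exonic bases of Nkx2-2os, 46.5% lie under opposite exons, where reads were not counted. Gm19522 in Zbtb20, a zinc finger repressor gene, had a log2 difference of -0.46 (adjusted p = 0.14) and Prox1os, beside Prox1, of -0.11 (adjusted p = 0.75).

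Around genes of hormone secretion, 7 antisense loci overlap 4 partners, and none of the 7 or the 4 was called by edgeR. Of the 7, 5 were lower and 0 higher at an unadjusted p under 0.05, DESeq2 called 3 lower, and the median was -0.89, against -0.49 under cyclic loess and -0.54 without normal diet library 1. For all 591 antisense loci tested, 196 were lower and 20 higher at that unadjusted level, with a median of -0.34. Of all 23983 loci 7623 passed it in either direction, and DESeq2 called 100 of the 597 antisense loci lower. Of the 4 partners, 2 were higher at an unadjusted p under 0.05 and DESeq2 called 0, and their median of 0.20 turned to -0.15 under cyclic loess. Pcsk2, which encodes prohormone convertase 2, holds 2 of the loci. Pcsk2os2 lies in its introns and was at 9.68, 5.27 and 4.42 CPM on the normal and at 3.09, 3.28 and 3.50 CPM on the high fat diet (-0.97, SE 0.27, adjusted p = 0.053). Normal diet library 1 stood above all others, and without it the log2 fold change was -0.58. For Pcsk2os1 the log2 difference was 0.06 (adjusted p = 0.67), and Pcsk2 was at 4559.9 ± 279 and 5206 ± 749 CPM.

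Rapgef4os2 and Rapgef4os3 lie in introns of Rapgef4, the gene of Epac2, a cAMP sensor that promotes insulin exocytosis. Rapgef4os2 was at 0.864, 0.547 and 0.526 CPM and at 0.274, 0.404 and 0.308 CPM (-0.98, SE 0.28, adjusted p = 0.055), and Rapgef4os3 differed by -1.07 on that scale (adjusted p = 0.085). Rapgef4 itself was at 226 ± 9.21 and 272 ± 25 CPM (adjusted p = 0.079). XLOC_007793 and Gm10421 in Ptprn2, a granule membrane protein gene, had log2 fold changes of -0.83 and -0.88, and AC165951.1, which overlaps the receptor gene Glp1r, of -0.89, none past the threshold. Normal diet library 1 carried much of several of these values: without it they were -0.54 for Rapgef4os3, -0.41 for XLOC_007793 and -0.31 for Gm10421, while Rapgef4os2 was at -0.73 and AC165951.1 at -0.86. The loci of this list share partners.

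Of 53 antisense or divergent RNAs listed by name, 6 are in the set, and 1, Lrp8os2, was lower and 0 higher. At an unadjusted p under 0.05, 4 were lower and 1 higher, DESeq2 called 3 lower and 0 higher, and the median was -0.61. For all 591 antisense loci tested, 196 were lower and 20 higher at that unadjusted level, with a median of -0.34. Of all 23983 loci 7623 passed it in either direction, and DESeq2 called 100 of the 597 antisense loci lower. Tug1, a widely expressed RNA here opposite Morc2a, was at 3.63, 2.18 and 2.31 CPM and at 1.72, 1.77 and 1.51 CPM (-0.70, SE 0.22, adjusted p = 0.069). In this assembly 79.7% of its exonic bases lie under opposite exons, so that most of the locus was not counted. Nespas, the imprinted antisense RNA of the Gnas cluster, was at 1.63, 1.40 and 1.56 CPM and at 1.09, 1.06 and 0.987 CPM (-0.55, SE 0.16, adjusted p = 0.059). The diets did not overlap for either. Dleu2, which spans Kcnrg and hosts microRNAs, was at 17.0, 16.5 and 15.2 CPM and at 13.3, 14.3 and 15.7 CPM, and the diets overlapped (-0.17, adjusted p = 0.32).

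The lists of genes outside islet function held few partners. Among genes of RNA processing and chromatin, 4 are partners of 4 antisense loci, none of which was called by edgeR (1 lower at an unadjusted p under 0.05, 0 by DESeq2). Of the 4 partners themselves 0 were called by edgeR, while DESeq2 and cyclic loess each called 1, Srsf5, lower. Gm20337 starts head to head with the splicing factor gene Srsf5 and was at 0.360, 0.328 and 0.281 CPM and at 0.468, 0.404 and 0.401 CPM (0.40, adjusted p = 0.26), with Srsf5 at 269 ± 43.6 and 194 ± 21.2 CPM (-0.47, adjusted p = 0.0504). Gm12992, opposite Srsf4, had a log2 difference of -0.79 (adjusted p = 0.059), Gm3227 in Celf4 of 0.08 and Gm20616 in Smarca2 of -0.27. The 1 mitochondrial partner was Gpd2, the glycerol-3-phosphate dehydrogenase of the inner membrane, and its antisense locus XLOC_020176 was at 1.06, 1.24 and 1.23 CPM and at 1.03, 1.10 and 1.34 CPM (-0.02, SE 0.18, adjusted p = 0.96).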

How the data were processed

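Counts and other files were used as deposited. The authors deposited raw counts of reads per assembled locus, a table of scaled values (a signal equal to the count times 1 constant per library, 0.906 to 1.10, with 100% whole reads within 0.001), and assembled transcripts on mouse build mm9. The submitters' processing notes name HTSeq 0.5.4p3, edgeR, Cufflinks 2.1.1 and TopHat2 2.0.8, with no settings given in the sources used here. No unassigned value columns were present.

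Loci passing filterByExpr (23983) were TMM-normalised and tested with edgeR 4.0.16 (R 4.3.3), by a two-sided quasi-likelihood test with Benjamini-Hochberg adjusted p over these loci and a threshold of 0.05. CPM are TMM-scaled. SE is the absolute log2 fold change over the square root of F. Pair ratios were tested with limma 3.58.1 on differences of log2 CPM (prior count 2) over 2721 pairs. Symbols came from matching exon and intron lengths to GENCODE M21 without converting coordinates: 19755 of 21213 annotated spliced loci were named, 99.6% of position-free matches fell on the gene's own chromosome and strand, and introns shifted in length gave 5 chain and 15 2-exon matches. Of the 521 names given to antisense loci, 144 rest on a rule for 2-exon transcripts with a 40-base tolerance at the ends.

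Named are the 6 highest per kilobase, the 8 largest changes each way past the threshold without overlap (7 rises exist), the listed RNAs, the 6 ratio pairs with the smallest adjusted p, pairs called on both sides, and up to 4 loci per partner list; others are named where a count is small or an example was chosen after its values were seen. The members and lists were chosen with earlier results of these data known. Scripts were tested on simulated counts. Alternatives were DESeq2 1.42.0, no filter, cyclic loess with limma, a replicate block, each library left out, acinar level as covariate, limma on the deposited scaled values, and subsets of loci.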

Additional observations from a re-analysis of the deposited data

How the results depend on the processing

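The counts of calls were the least stable results. The called antisense loci kept their direction, but they had been picked by their adjusted p in these same libraries. A kept direction is therefore no separate test of it. Against 66 lower and 7 higher antisense loci, DESeq2 gave 100 and 11, cyclic loess 14 and 3, the acinar covariate 0 and 0, and leaving out a library 0 to 96 and 0 to 14. Lower loci numbered 38 on the deposited scaled values, 36 with under 10% of exonic bases shared, 36 with the longest exon under 10000 bases and 6 for loci mostly outside partners; higher loci numbered 3 where exons of locus and partner overlap and 3 mostly outside partners. The last 2 subsets by exon length and position were chosen after seeing the data. For partners, against 45 higher and 16 lower, DESeq2 gave 70 and 28, cyclic loess 5 and 8, the acinar covariate 0 and 0, and leaving out a library 0 to 96 and 0 to 33. Ratio calls, 20 in all, came to 0 with cyclic loess and 0 to 88 with a library left out. Without a normal diet library no locus of either kind was called, nor any other locus tested. The lowest adjusted p of an antisense locus by edgeR was then 0.095, 0.078 and 0.083 without normal diet library 1, 2 and 3. Among all loci tested, DESeq2 gave 1651 lower and 2428 higher of 22341, and the deposited scaled values 945 and 399 of 23983. Cyclic loess gave 232 lower and 249 higher, and the acinar covariate 0 and 0.

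Replicate numbers are shared by the diets but did not pair the libraries: same-numbered libraries had correlations of -0.07, 0.07 and -0.01 of their deviations from group means. With the replicate number as a block, 0 antisense loci were higher and 2 lower, 1 partner was higher and 0 lower, and 0 ratios were called.

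Over the named loci and partners, 565 values kept direction and side of the threshold, 219 lost and 22 gained a call, and 41 changed sign, all of loci that were not called. With cyclic loess the log2 fold changes were -0.038 for Morc2a, -0.092 for Ptprn2, -0.0048 for H2afy, -0.052 for Parp9, -0.15 for Smarca2, 0.057 for Gm20616, -0.20 for Pcsk2, -0.23 for Gnas, 0.19 for XLOC_020176, -0.083 for Patj, -0.011 for Uvrag, -0.066 for Tecr and -0.092 for Cdh8. With DESeq2 they were 0.010 for Tbc1d22a, 0.026 for Pax6 and 0.027 for XLOC_020176. With the acinar covariate they were -0.13 for Efcab5, -0.15 for Pcdh17, -0.026 for Gnas, -0.051 for Abcc9 and -0.0013 for Tecr. Without the filter the value was -0.00023 for Efcab5. With each library left out in turn they ran from -0.010 to 0.13 for Morc2a, -0.13 to 0.13 for Efcab5, -0.11 to 0.030 for Tbc1d22a, -0.075 to 0.14 for Parp9, -0.093 to 0.21 for Gm3227, -0.036 to 0.082 for Smarca2, -0.057 to 0.023 for Pax6, -0.063 to 0.13 for Gnas, -0.14 to 0.065 for XLOC_020176, -0.012 to 0.21 for Abcc9 and -0.041 to 0.20 for Tecr. The cause of these changes was not tested. Low counts limit what can be shown: the median antisense locus had 553 counts over 6 libraries.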
